A study of Mus musculus with 5 samples.

Results

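The miR-148 and miR-152 family was read from arrays of mouse bone marrow-derived dendritic cells (BMDCs) that were stimulated with flagellin or kept in medium alone. The members were chosen by name, as both arms of miR-148a, miR-148b and miR-152, and numbered 6 of the 1122 mouse miRNAs on the array, 3 of them 3p arms and 3 of them 5p arms. The 3p arms (mmu-miR-148a-3p, mmu-miR-148b-3p and mmu-miR-152-3p in the files) were detected on all 5 arrays, and the 5p arms were detected on none.

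All groups came from C3H/HeJ bone marrow cultured with rmGM-CSF and rmIL-4, followed by a magnetic bead sort for CD11c, so the sort and the cytokines were shared by stimulated and unstimulated cells. The stimulated group (3 arrays, flagellin replicates 1 to 3) received 100 ng/ml flagellin for 24 h, and the other group (2 arrays, medium replicates 1 and 2) received medium for 24 h. C3H/HeJ mice carry a defective TLR4, the receptor for lipopolysaccharide, while flagellin is sensed by TLR5. The labels do not say whether replicates were separate cultures or animals, so p-values measure only the spread between these arrays, and in sorted but bulk RNA a smaller number of expressing cells and less RNA per cell cannot be told apart.

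A miRNA guides the silencing complex to messenger RNAs that pair with its seed, the bases near its 5′ end, and miRNAs with the same seed can share targets. In dendritic cells the miR-148 and miR-152 family is known as a brake on Toll-like receptor responses, which acts by repressing the alpha subunit of the calcium/calmodulin-dependent kinase CaMKII and so limits cytokine production and antigen presentation. Messenger RNAs, CaMKII included, were not measured on these arrays.

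The 3p arms are shown because they are the members with a signal. The sequences and positions are those of RefSeq on GRCm38.p6, all 6 members were matched by name, and capitals mark the seed (bases 2 to 8, counted from 1 at the 5′ end).
miR-148a-3p: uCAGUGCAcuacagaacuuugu
miR-148b-3p: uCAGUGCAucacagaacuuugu
miR-152-3p: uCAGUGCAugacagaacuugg
The seed CAGUGCA was the same in all 3, and no other mouse miRNA among the 1679 mature names of the reference table had it. Outside the seed, miR-148b-3p differed from miR-148a-3p by C9U and U10C. miR-152-3p, which is 21 nt long against 22 nt for the others, differed from miR-148a-3p by C9U, U10G and U20G, and from miR-148b-3p by C10G and U20G. miR-148a-3p lies at chr6:51269829-51269850 on the minus strand, within the span of Gm38821. miR-148b-3p lies at chr15:103285185-103285206 on the plus strand, within the span of Copz1, and miR-152-3p at chr11:96850439-96850459 on the plus strand, within the span of Copz2. Copz1 and Copz2 encode paralogous subunits of the COPI vesicle coat. The reference table gives the spans of genes only, so exon or intron is not stated here.

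The 5p arms, which come from the other strand of the same hairpins, are shown because their probes gave no signal.
miR-148a-5p: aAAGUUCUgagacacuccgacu
miR-148b-5p: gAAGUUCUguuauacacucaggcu
miR-152-5p: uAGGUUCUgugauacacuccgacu
Here miR-148a-5p and miR-148b-5p shared the seed AAGUUCU, and miR-152-5p had AGGUUCU.

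Each 3p arm was measured by a pair of probes, each printed in 20 spots. The probes are shown because they differ between members at few bases. Capitals mark the bases that pair with positions 9, 10 and 20 of the miRNA, the positions at which the members differ.
miR-148a-3p probe of 19 nt: acAaagttctgtAGtgcac
miR-148a-3p probe of 20 nt: acAaagttctgtAGtgcact
miR-148b-3p probe of 18 nt: acAaagttctgtGAtgca
miR-148b-3p probe of 19 nt: acAaagttctgtGAtgcac
miR-152-3p probe of 16 nt: cCaagttctgtCAtgc
miR-152-3p probe of 17 nt: cCaagttctgtCAtgca
The longest stretch without a differing base was 12 nt between the probes of miR-148a-3p and miR-148b-3p, and 9 nt between the probes of miR-152-3p and those of either other member. The probe of 19 nt for miR-148a-3p would pair with miR-148b-3p at 17 of its 19 bases. How much each probe takes up of the other members was not tested, so the 3 values are not known to be fully separate.

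The arrays did not behave alike. For each miRNA the scanner software Agilent Feature Extraction sums its probes into a total gene signal, in which only probes with a signal above 3 times their error count. The 75th percentile of this signal over the 277 miRNAs detected on all 5 arrays was 281, 293 and 211 on flagellin replicates 1, 2 and 3, and 282 and 246 on medium replicates 1 and 2. Flagellin replicate 3 was thus the dimmest array, and results are given with and without it. The slide held the medium arrays in column 4, flagellin replicate 3 in column 3 and the remaining flagellin arrays in column 2, so that each column held a single treatment. The sorted population was checked against marker miRNAs. The myeloid and haematopoietic miR-223-3p, miR-142-3p and miR-142-5p were detected on all 5 arrays. The lymphoid miR-150-5p and 5 of 6 epithelial markers were detected on none. The myeloid markers summed to between 18.6 and 22.5 times the 75th percentile with flagellin, with the lowest sum on flagellin replicate 3, and to between 20.0 and 21.0 times with medium.

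miR-148a-3p had total gene signals of 207, 226 and 124 on flagellin replicates 1, 2 and 3, and of 177 and 157 on medium replicates 1 and 2. The first and second flagellin arrays were above both medium arrays and the third was below both, so the groups overlapped. Signals were then scaled to the 75th percentile of the array and put on the log2 scale, which compensates for the dimness of an array. The scaled log2 values of miR-148a-3p were −0.44, −0.38 and −0.77 in the flagellin group and −0.67 and −0.65 in the medium group, so flagellin replicate 3 remained the lowest array after scaling.

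miR-148b-3p had total gene signals of 69.2, 70.3 and 35.8 in the flagellin group and of 59.9 and 50.3 in the medium group. Its scaled log2 values were −2.02, −2.06 and −2.56 in the flagellin group and −2.24 and −2.29 in the medium group. Flagellin replicates 1 and 2 were again above both medium arrays and replicate 3 below both. On flagellin replicate 3 its scaled value lay 0.30 below the mean of the medium arrays on the log2 scale, beside 0.11 for miR-148a-3p and 0.10 for miR-152-3p. On that array the miR-148b-3p probe of 18 nt had a signal of 4.22, under the limit of 4.78 that 3 errors set, and was left out of the sum, which therefore rested on 1 probe.

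miR-152-3p had total gene signals of 98.9, 101 and 59.2 in the flagellin group and of 86.3 and 72.6 in the medium group. Its scaled log2 values were −1.51, −1.54 and −1.83 in the flagellin group and −1.71 and −1.76 in the medium group. The order was the same as for the other members, with flagellin replicates 1 and 2 highest and replicate 3 lowest.

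**Figure D1:**
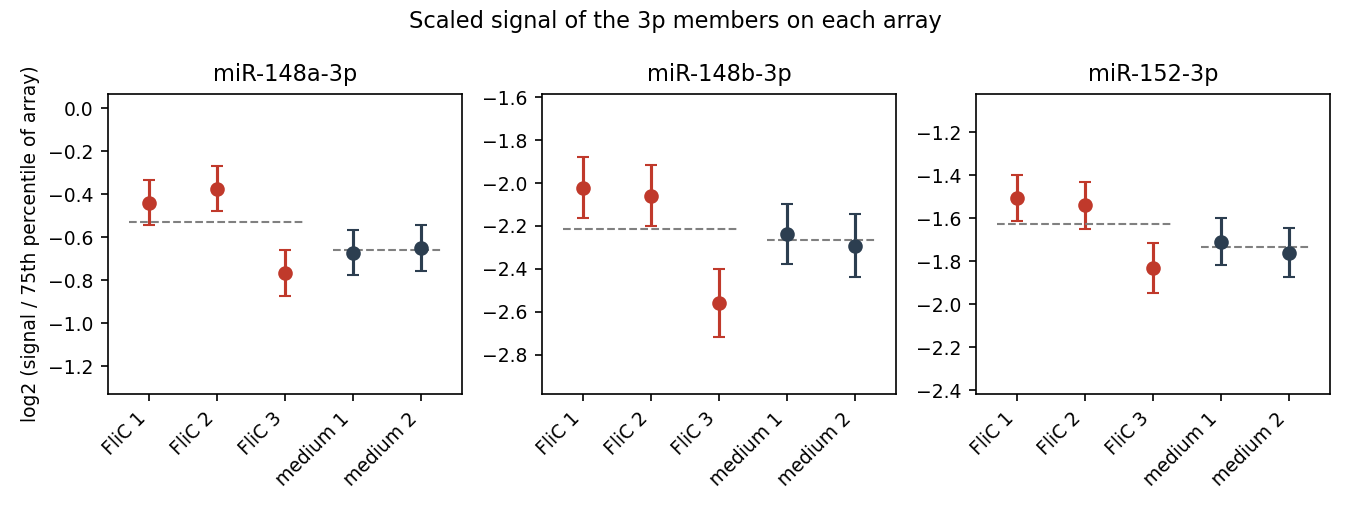
Scaled signal of the 3 detected members on each array. The y axis is the log2 of the total gene signal over the 75th percentile of the array, error bars are the error that Feature Extraction gives for the signal, dashed lines are group means, red points are flagellin (FliC) arrays and dark points are medium arrays. In each panel FliC 1 and FliC 2 lie above both medium arrays and FliC 3 lies below both.

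No 3p member passed the test between flagellin and medium. The log2 difference of miR-148a-3p, flagellin minus medium, was 0.13 (standard error 0.14, n = 3 and 2 arrays, limma's test, adjusted p = 0.859 over 307 miRNAs). The difference was 0.05 for miR-148b-3p (standard error 0.19, limma's test, adjusted p = 0.966). For miR-152-3p it was 0.11 (standard error 0.13, limma's test, adjusted p = 0.871). As folds these are 1.10, 1.04 and 1.08, and the 95% intervals run from 0.845 to 1.43, from 0.727 to 1.48 and from 0.854 to 1.36. The intervals held both decreases and increases up to these bounds, and the direction of change was not resolved for any member.

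Against this, 2 of the 307 miRNAs tested (0.651%) passed at an adjusted p under 0.05. They were miR-5112 and miR-466i-3p, which were undetected on the 3 flagellin arrays and detected on the 2 medium arrays. Their names were chosen after their values were seen, and neither belongs to the family. Both had all 3 flagellin values at the floor that replaces undetected signals (−6.37 on the log2 scale), so their calls rest on replaced values. Calls numbered 4 with the floor divided by 10 and 0 with no detection rule. Before adjustment 18 of the 307 miRNAs (5.86%) had a p under 0.05, and 0 of the 3 members did (unadjusted p of 0.395, 0.804 and 0.434 in limma's test). All 3 log2 differences were above 0, as were 159 of the 307, and their median was 0.11 beside 0.01 over all miRNAs tested. From the highest log2 difference down, miR-148a-3p stood at place 47, miR-152-3p at place 69 and miR-148b-3p at place 126 of 307.

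The spread among the flagellin arrays was larger than the difference between the groups. The mean of flagellin replicates 1 and 2 exceeded flagellin replicate 3 by 0.36 for miR-148a-3p, 0.52 for miR-148b-3p and 0.31 for miR-152-3p on the log2 scale. The error that Feature Extraction attaches to a single array's signal was 0.10 to 0.11 for miR-148a-3p, 0.14 to 0.16 for miR-148b-3p and 0.11 to 0.12 for miR-152-3p on the same scale. The standard deviation among the flagellin arrays was 0.21, 0.30 and 0.18 for miR-148a-3p, miR-148b-3p and miR-152-3p, and among the medium arrays 0.01, 0.04 and 0.04.

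Without flagellin replicate 3 the members were closer to one another and further from 0. The log2 difference was then 0.25 for miR-148a-3p (standard error 0.05, limma's test, unadjusted p = 0.0141, adjusted p = 0.164). It was 0.22 for miR-148b-3p (standard error 0.05, limma's test, unadjusted p = 0.0202, adjusted p = 0.177) and 0.21 for miR-152-3p (standard error 0.05, limma's test, unadjusted p = 0.0223, adjusted p = 0.177). As folds these are 1.19, 1.17 and 1.16. All 3 members thus had an unadjusted p under 0.05, but so did 71 of the 307 miRNAs (23.1%), 29 of them higher with flagellin (9.45%). In that fit 1 of the 307 (0.326%), again miR-466i-3p, had an adjusted p under 0.05. The single array therefore moved the estimate for miR-148a-3p from 0.13 to 0.25, that for miR-152-3p from 0.11 to 0.21 and that for miR-148b-3p from 0.05 to 0.22. Flagellin replicate 3 held the lowest scaled value of each member, so leaving it out could only raise these estimates.

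The order seen in the members was not particular to them. Of the 307 miRNAs tested, 32 (10.4%) had flagellin replicates 1 and 2 above both medium arrays and replicate 3 below both, and 3 of those 32 were the members. The opposite order, with replicates 1 and 2 below and replicate 3 above, held for 43 (14.0%). All 3 flagellin arrays were above both medium arrays for 35 miRNAs (11.4%) and below both for 27 (8.79%), and no member was among either.

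The length of the probes moved with this order. All 32 miRNAs with the order of the members had probes with a mean length of 16.5 nt or more, against 15 of the 43 with the opposite order at 16 nt or more and 172 of the 307 tested. The mean probe length was 19.5 nt for miR-148a-3p, 18.5 nt for miR-148b-3p and 16.5 nt for miR-152-3p. Over the miRNAs detected on all 5 arrays, the slope of the scaled log2 value on probe length was 0.0325 and 0.0196 per nt on flagellin replicates 1 and 2, −0.0273 on flagellin replicate 3, and −0.0093 and −0.0154 on the medium arrays. In the same miRNAs, the excess of flagellin replicates 1 and 2 over replicate 3 had a median of 0.06 in the 159 with a mean probe length of 16 nt or more, a bound chosen after the values were seen, and of −0.21 in the 118 with shorter probes. The members lay above the median of the long group, at places 20, 8 and 27 of 159 for miR-148a-3p, miR-148b-3p and miR-152-3p. The place of miR-148b-3p includes the effect of its probe that was not counted on flagellin replicate 3.

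**Figure D2:**
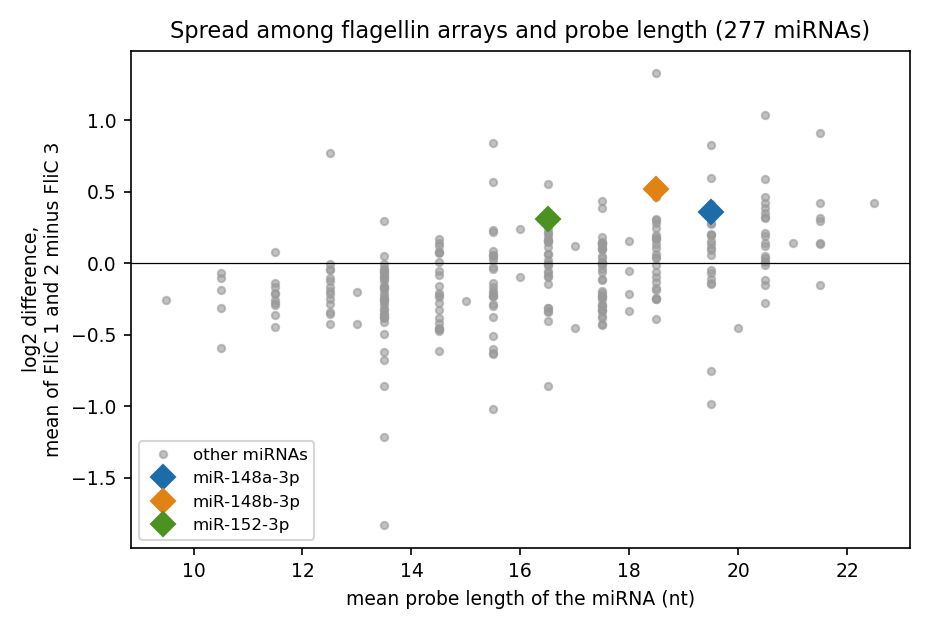
Difference between flagellin arrays against probe length for the 277 miRNAs detected on all 5 arrays. The x axis is the mean probe length of the miRNA in nt and the y axis the log2 scaled value of the mean of FliC 1 and 2 minus that of FliC 3, with 1 point per miRNA. Short probes lie mostly below 0 and the members, drawn as diamonds, lie at 0.36, 0.52 and 0.31 for miR-148a-3p, miR-148b-3p and miR-152-3p. On FliC 3 the value of miR-148b-3p rests on 1 probe.

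After the linear dependence on probe length was subtracted array by array, the log2 difference of flagellin from medium was 0.07 for miR-148a-3p, 0.01 for miR-148b-3p and 0.11 for miR-152-3p. With the trend removed and flagellin replicate 3 left out, it was 0.13, 0.14 and 0.21, with adjusted p from limma's test of 0.400, 0.365 and 0.311. Both settings were chosen after the data were seen. Without flagellin replicate 3, miR-152-3p thus stood at 0.21 with and without the trend, and miR-148a-3p at 0.13 in place of 0.25. The subtraction is centred on the mean probe length of the miRNAs, which is near the 16.5 nt of miR-152-3p. It could therefore hardly move miR-152-3p, and it moved the other members more because their probes are longer. This contrast between members was set by their probe lengths. The part of probe length in the order of the arrays was not tested beyond these values.

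Markers of other cell types were also uneven across the flagellin arrays. The endothelial miR-126-3p had total gene signals of 12.6, 29.1 and 5.60 in the flagellin group and 12.5 and 5.04 in the medium group. The stromal miR-199a-3p had 5.58 and 41.3 on flagellin replicates 1 and 2, 5.59 on medium replicate 1, and was undetected on flagellin replicate 3 and medium replicate 2. The erythroid miR-451 was detected only on flagellin replicates 1 and 2, with 5.29 and 17.0. These 3 markers were highest on flagellin replicate 2, as was the stromal miR-199a-5p, detected there alone (11.8). The epithelial miR-200c-3p was detected only on flagellin replicate 1 (5.98) and medium replicate 1 (5.60). Of the 5 stromal markers, 3 were detected on no array, and the summed stromal signal ran from 0 to 0.181 times the 75th percentile with flagellin and from 0 to 0.0198 times with medium. For the 2 endothelial markers it ran from 0.0266 to 0.0993 with flagellin and from 0.0205 to 0.0444 with medium. miR-126-5p was detected on no array, so this sum is miR-126-3p alone. For the 2 erythroid markers on the array it ran from 0 to 0.0579 with flagellin and was 0 with medium, and miR-144-3p was detected on no array. For the 6 epithelial markers it ran from 0 to 0.0213 with flagellin and from 0 to 0.0198 with medium. The stromal miR-199a-3p is also on the list of miRNAs of Toll-like receptor responses used below. Whether cells of these types were present, and any part of them in the members' values, was not tested.

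The probes of the members were then followed one by one. For miR-148a-3p, the probes of 19 and 20 nt differed between flagellin and medium by 0.12 and 0.14 on the log2 scale. For miR-152-3p, the probes of 16 and 17 nt differed by 0.09 and 0.12. For miR-148b-3p, the probe of 19 nt differed by 0.12 and the probe of 18 nt by −0.06. None of the 6 probes passed an exact permutation test over the 10 splits of the arrays (two-sided p = 0.6 for each probe, 0.6 adjusted over the 6), and the smallest p that 3 against 2 arrays can give is 0.1.

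The probes of miR-148b-3p differed most in how well they were measured. The probe of 19 nt had signals of 63.0, 63.8 and 35.8 in the flagellin group and 53.5 and 44.9 in the medium group, and was between 9.14 and 9.64 times its error on every array. The probe of 18 nt had signals of 6.26, 6.54 and 4.22 in the flagellin group and 6.43 and 5.41 in the medium group, which was 2.65 to 4.02 times its error. It passed the limit of 3 errors on 4 of 5 arrays, and on each array between 0 and 6 of its 20 spots were well above background. Its log2 difference had a 95% interval of −0.28 to 0.17 in limma's fit, so its direction was not resolved. With the probe of 19 nt alone, the value of miR-148b-3p on flagellin replicate 3 was 0.13 below the medium mean, close to the 0.12 and 0.10 of the miR-148a-3p probes and the 0.09 and 0.10 of the miR-152-3p probes. With the sum of both probes and no limit on error, a setting chosen after the data were seen, the log2 difference of miR-148b-3p was 0.10 (limma's test), beside 0.05 with the limit.

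**Figure D3:**
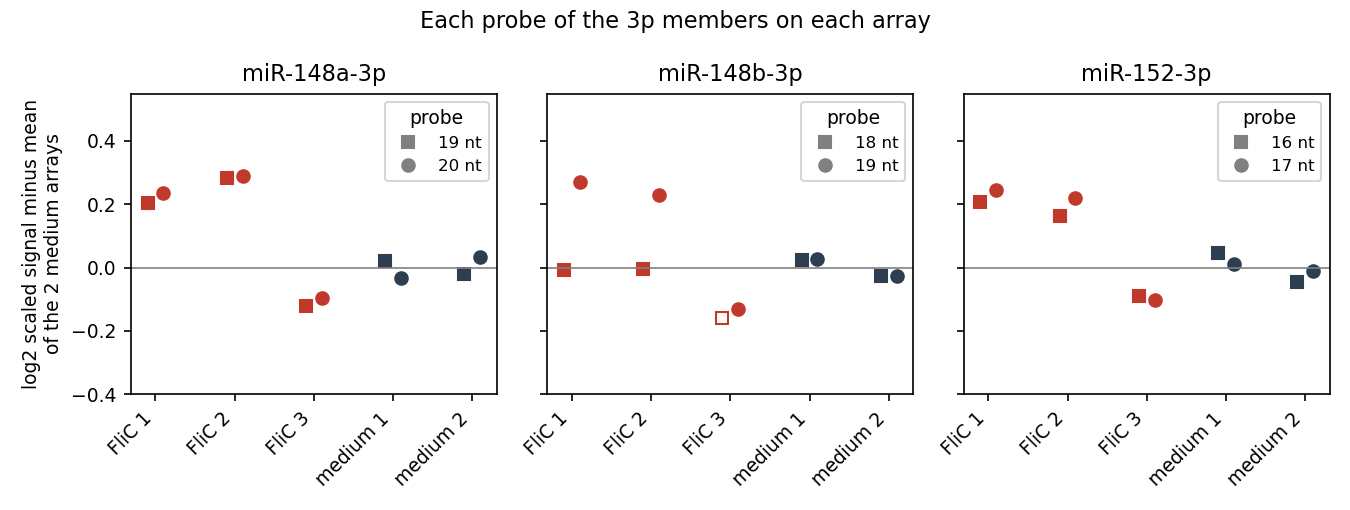
Each probe of the 3 detected members on each array. The y axis is the log2 scaled probe signal minus its mean over the 2 medium arrays, squares are the shorter and circles the longer probe, red is flagellin (FliC), dark is medium, and the open square is the signal that did not pass 3 errors. Of the 6 probes, only the probe of 18 nt of miR-148b-3p does not lie above the medium arrays on FliC 1 and FliC 2.

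The members were compared with each other through the log2 ratio of a pair on each array, which cancels the brightness of the array. The ratio of miR-148a-3p to miR-152-3p was 1.07, 1.16 and 1.06 in the flagellin group and 1.04 and 1.11 in the medium group, a range of 0.13 over the 5 arrays. The ratio of miR-148a-3p to miR-148b-3p was 1.58, 1.68 and 1.79 in the flagellin group and 1.56 and 1.64 in the medium group, and that of miR-148b-3p to miR-152-3p was −0.51, −0.52 and −0.73 in the flagellin group and −0.53 and −0.53 in the medium group. These ratios are read for how they move across arrays, not as relative levels, because probes of different sequence are not compared by level. In both ratios that hold miR-148b-3p, flagellin replicate 3 stood apart, and it was the array on which the probe of 18 nt was not counted. With the longer probe of each member alone, the range over the 5 arrays was 0.11 for miR-148a-3p to miR-152-3p, 0.12 for miR-148a-3p to miR-148b-3p and 0.05 for miR-148b-3p to miR-152-3p.

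The change with flagellin did not differ detectably between members. The difference in change was 0.08 between miR-148a-3p and miR-148b-3p (exact permutation test, two-sided p = 0.4), 0.03 between miR-148a-3p and miR-152-3p (exact p = 0.8) and −0.06 between miR-148b-3p and miR-152-3p (exact p = 1), and each was 1 after adjustment over the 3 pairs. The ratios of the groups overlapped in all 3 pairs, and a p of this size in a design whose smallest p is 0.1 does not show that the members changed alike.

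miRNAs with a profile like that of a member were sought among the 276 others detected on all 5 arrays. Likeness was the root mean square difference over the 5 arrays after each miRNA was centred on its own mean. For miR-148a-3p the nearest were miR-29c-3p (0.036), miR-101b-3p (0.036) and miR-27a-3p (0.037), beside a median of 0.218 over all 276. For miR-148b-3p they were miR-29c-3p (0.046), miR-101a-3p (0.056) and miR-340-5p (0.056), beside a median of 0.257. For miR-152-3p they were miR-19b-3p (0.016), miR-467a-3p (0.028) and miR-18a-5p (0.033), beside a median of 0.200. These miRNAs had mean probe lengths between 16.5 and 21.5 nt. The members were near one another but not nearest. miR-148a-3p and miR-152-3p each stood at place 8 on the other's list (0.044), and miR-148b-3p stood at place 27 for miR-148a-3p (0.081) and at place 42 for miR-152-3p (0.082). On the list of miR-148b-3p itself, miR-148a-3p stood at place 6 and miR-152-3p at place 7. All distances of miR-148b-3p include the effect of its probe that was not counted on flagellin replicate 3. Its places therefore do not show a less similar profile. With the longer probe of each member alone, the log2 ratio of miR-148b-3p to miR-152-3p had a range of 0.05 over the 5 arrays. The range was 0.12 for miR-148a-3p to miR-148b-3p and 0.11 for miR-148a-3p to miR-152-3p.

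The other miRNAs that are known from Toll-like receptor responses gave a frame for these values. Their list was chosen with earlier results of these data known, so its counts are no independent support. All 24 on the list were on the array, 20 were tested, and limma's test called 0 of them at an adjusted p under 0.05, beside 0.651% of all 307. An unadjusted p under 0.05 was reached by 3 of the 20, all higher with flagellin, beside 18 of the 307 (5.86%) counted in both directions. They were miR-155-5p, which is induced by inflammatory signals (log2 difference 0.35, standard error 0.10), miR-146a-5p, a feedback inhibitor of the pathway (0.28, standard error 0.09), and miR-132-3p, which is induced through CREB (0.35, standard error 0.09), with adjusted p = 0.650 for each (limma's test). Of the 20, 13 were higher and 7 lower, while 159 of the 307 were higher, with a median log2 difference of 0.06 beside 0.01 over all 307. The members' differences of 0.13, 0.05 and 0.11 were smaller than those of these 3 miRNAs, a comparison that was not tested.

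The 5p arms were below the detection limit with flagellin and with medium. miR-148a-5p had 4 probes of 13 to 16 nt in 10 spots each, with signals between −1.05 and 0.0239 over the 5 arrays, while 3 errors amounted to at least 2.19. miR-148b-5p had a pair of probes of 18 and 19 nt in 20 spots each, with signals between −0.646 and 0.866 and limits of at least 4.40. miR-152-5p had a pair of probes of 16 and 17 nt, with signals between −1.26 and −0.191 and limits of at least 4.39. No probe of a 5p arm reached its limit on any array, the highest being 0.590 times its error. The 5p arms were therefore given the value 0.1 that Feature Extraction assigns to undetected miRNAs, passed no filter for testing, and have no fold change.

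Array row on the slide was not shared by all arrays of a group. Row 1 held flagellin replicates 1 and 3 and medium replicate 2, and the log2 difference there was 0.05 for miR-148a-3p, 0.001 for miR-148b-3p and 0.09 for miR-152-3p. Row 2 held flagellin replicate 2 and medium replicate 1, and the differences were 0.30, 0.18 and 0.17. These are values with no test, and the differences were smaller in the row that held flagellin replicate 3. With array column as a random block, the log2 differences were 0.11, 0.01 and 0.09 (limma's test, adjusted p = 0.997 for each). Each column held a single treatment, so this fit cannot tell an effect of column from one of flagellin.

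**Figure D4:**
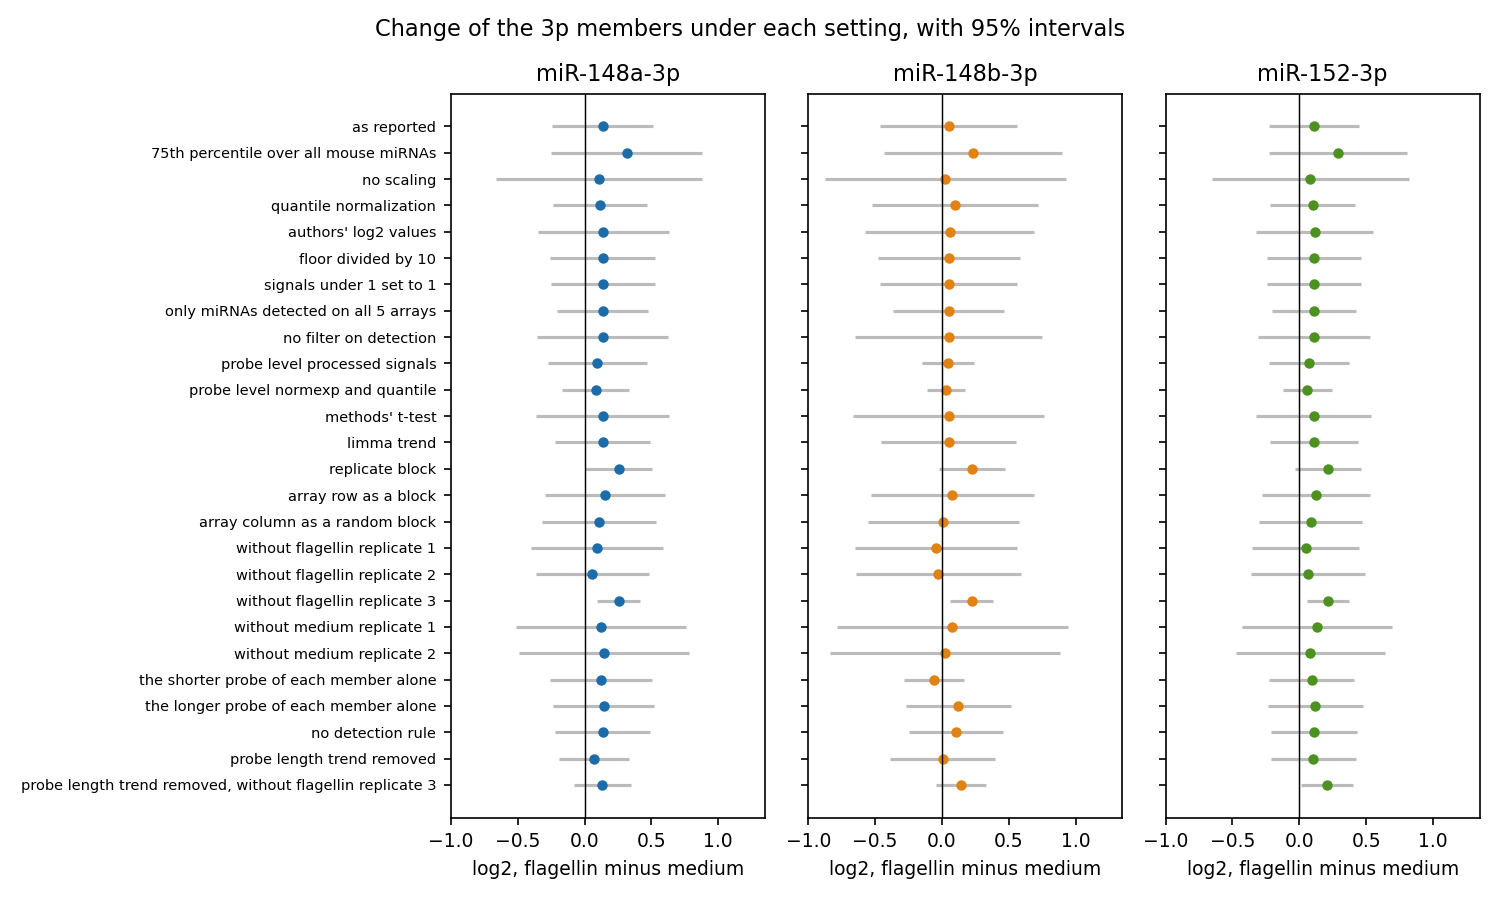
Log2 difference of the 3 detected members, flagellin minus medium, as reported and under each of 25 other settings. Points are estimates and grey lines 95% intervals, and the vertical line marks no difference. All 3 estimates are above 0 in 22 of the 25 settings, but settings that alter only the floor, the miRNAs tested or the test cannot move them. The intervals of all 3 exclude 0 when flagellin replicate 3 alone is left out. Those of miR-148a-3p and miR-148b-3p include 0 when the probe length trend is removed as well. The estimate of miR-152-3p could hardly move there, because its probe length lies near the mean on which the trend is centred.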

How the data were processed

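Total RNA was labelled with Cy3 and hybridized to 1-colour Agilent mouse miRNA arrays. The authors deposited spot intensity values from Agilent Feature Extraction 10.7.3.1, with a total gene signal and a detection flag per miRNA, and a table of log2 values from GeneSpring. Each deposited log2 value differs from the log2 of the total gene signal by a constant that is fixed for an array. Feature Extraction's rule (probes above 3 errors summed, 0.1 if none) gave the deposited signal for 5610 of 5610 pairs, within a relative tolerance of 0.001.

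Signals were divided by the 75th percentile of the array, taken over 277 mouse miRNAs that every array detected, and raised to a floor of 0.0121 (−6.37 on the log2 scale), the highest among the lowest detected values of the arrays. miRNAs detected on at least 2 arrays (307) were tested with limma 3.58.1 under R 4.3.3 with no covariate and 3 residual degrees of freedom, after a check on simulated data, with Benjamini-Hochberg adjustment over all 307. The study's t-test was replaced because the arrays are few. Single probes and pairs used exact permutation tests (Python 3.11.15, scipy 1.17.1). The number of arrays limits the precision. Groups came from the labels.

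The members and lists were chosen with earlier results of these data known. Named miRNAs are the 6 members, for each 3p arm the 3 with the nearest profile, other miRNAs with the same seed, and list members with an unadjusted p under 0.05. Marker miRNAs of myeloid and other cell types and the 2 miRNAs with an adjusted p under 0.05 are named outside this rule, after their values were seen. The alternatives covered scaling, floor, detection, probe level values, test, blocks and arrays left out. Probe positions in the files are on mm9, and miRNA positions printed here on GRCm38.p6.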

Additional observations from a re-analysis of the deposited data

How the results depend on the processing

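In 75 alternative fits of the 3 detected members (25 settings for each), 72 kept a log2 difference above 0 and 0 had an adjusted p under 0.05, the lowest being 0.164. Settings that altered only the floor, the set of miRNAs tested or the kind of test left the estimates at 0.13, 0.05 and 0.11. Such fits could not change the sign. The replicate block gave the same estimates as leaving out flagellin replicate 3. The count of 72 thus overstates how often the direction was put to a test. miR-148b-3p was reversed with the shorter probe alone (−0.057). With 1 array left out, the log2 difference ran from 0.06 to 0.25 for miR-148a-3p, from −0.045 to 0.224 for miR-148b-3p (below 0 without flagellin replicate 1, and −0.026 without flagellin replicate 2) and from 0.05 to 0.21 for miR-152-3p, with each highest value without flagellin replicate 3. Scaling by the 75th percentile over all mouse miRNAs gave 0.31, 0.23 and 0.29, while it moved the median of all miRNAs to 0.19, and relative to that median the members were at 0.13, 0.04 and 0.10. The difference in change between 2 members ran from 0.03 to 0.14 for miR-148a-3p against miR-148b-3p, from −0.012 to 0.062 for miR-148a-3p against miR-152-3p and from −0.095 to 0.012 for miR-148b-3p against miR-152-3p with 1 array left out.

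Calls at an adjusted p under 0.05 numbered 2 as reported and 4 with the authors' log2 values, with the floor divided by 10 and with signals under 1 set to 1. They numbered 1 when detection on all 5 arrays was required, with no filter, with limma's trend option and with array column as a random block. They numbered 0 with quantile normalization, no scaling, the other 75th percentile, probe level processed signals, probe level normexp, array row as a block and no detection rule, and from 0 to 1 with 1 array left out. Calls at an unadjusted p under 0.05 numbered 18 as reported, 8 with no scaling and 8 with array column as a random block, and from 7 to 71 with 1 array left out. The 71 came without flagellin replicate 3 (46 with the probe length trend also removed), the 7 without medium replicate 1, and the count without flagellin replicate 1 was 11. The cause was not tested. A t-test on the scaled and floored values gave 14 unadjusted and 2 adjusted, and 2 with a p under 0.05 and over 2-fold. The floor can shrink a difference where a group is undetected, and miR-5112 stood at −0.79 on the log2 scale, short of 2-fold. The methods' own test used values without this floor, so these counts do not repeat it. The paper reported more miRNAs past its threshold.

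Replicate numbers 1 and 2 occur in both groups, but the labels do not say that they pair the arrays, and they were not taken to. Deviations of same-numbered arrays from their group means correlated at −0.043 and −0.076. With 2 medium arrays the medium deviations mirror each other, and the flagellin deviations are from a mean that includes flagellin replicate 3. The correlations therefore can neither show nor exclude pairing. With the replicate block, which leaves flagellin replicate 3 without a partner, the log2 differences were 0.25, 0.22 and 0.21 (limma's test, adjusted p = 0.336 for each), and the counts were 0 adjusted and 39 unadjusted. The 5p arms passed no filter and could not be fitted under any alternative that keeps it. With no filter their values stood at the floor on all arrays.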
